A study of Homo sapiens with 6 samples.

Results

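Of the YAP/TAZ genes that the deposited table of Huh7 cells holds, 7 are described here: CTGF, ANKRD1, CRIM1, PTPN14, ARHGEF17 and GADD45B, which are targets of the coactivators YAP and TAZ, and TEAD1, a transcription factor through which those coactivators act. They were found by gene symbol. Each had 1 row, which stands for 1 RefSeq transcript, among the table's 10191 rows of 9717 named genes, and all 7 were among the 8600 rows with enough reads to be tested. The 7 were taken from a longer list of YAP/TAZ genes with earlier results of these data known, so the number of them that passed a test carries no weight of its own.

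The study compared cells depleted of ABL1, which encodes a cytoplasmic and nuclear tyrosine kinase, with control cells. Huh7 is an established human hepatocellular carcinoma line. RNA was sequenced from 3 libraries of Huh7 cells with a short hairpin RNA (shRNA) against ABL1 and from 3 libraries of Huh7 cells with a scrambled shRNA, and all 6 were taken 1 week after puromycin selection. The hairpin's sequence, the number of hairpins and whether the replicates were separate cultures are not stated in the sources used here. The p-values therefore rest on the spread among these 6 libraries alone, and that spread may be technical.

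YAP (gene YAP1) and TAZ (gene WWTR1) are transcriptional coactivators that bind DNA through the TEAD factors. The Hippo kinases hold them in check: the LATS kinases, activated by the STK3 and STK4 kinases with the adaptors SAV1 and MOB1A, phosphorylate YAP and TAZ, which then stay in the cytoplasm or are degraded. Cell junctions, cell polarity and the actin cytoskeleton feed into the same switch. In the liver the pathway is known for the control of organ size, of the hepatocyte and biliary fates and of tumour growth.

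The knockdown libraries held 7952645, 6651413 and 7483809 counted reads and the scrambled libraries 10487862, 7713451 and 9137608. Values are normalized counts, which are reads multiplied by the authors' scale factor for the library. A log2 change is the mean of log2(normalized count + 1) in the knockdown minus that in the scrambled libraries, tested with limma over all 8600 transcripts with Benjamini-Hochberg adjustment and a threshold of 0.05. ABL1 itself had 2 tested transcripts. NM_007313, the one with more reads in the scrambled libraries, had normalized counts of 13.7, 10.2 and 9.28 in the knockdown, against 73.4, 71.7 and 71.3 in the scrambled libraries. NM_005157 had 17.6, 19.2 and 24.8, against 9.17, 6.72 and 10.3. Of 8 hepatocyte and hepatoma markers, FGB had too few reads to be tested and APOA1 and SERPINA1 had no row. The 5 tested, ALB, APOB, TTR, AFP and TF, were all abundant. Together they came to 395245 to 440537 normalized counts per knockdown library and 461663 to 520998 per scrambled library. ALB (log2 change -0.42), TF (-0.44) and APOB (-0.20) fell, and TTR and AFP did not pass. With libraries scaled to equal totals ALB (-0.24) and TF (-0.27) still fell, TTR rose (0.36), and APOB and AFP did not pass. With quantile normalization none of the 5 fell. That scaling gives every library the same set of values, so transcripts of equal rank come out equal. It therefore cannot decide whether the most abundant of these markers fell. Over all tested transcripts 51.9% changed, 24.5% upward and 27.4% downward. With libraries scaled to equal totals 63.6% of the calls were rises, against 47.2% with the authors' scale factors, and the median over all tested transcripts shifted to 0.17 on the log2 scale, in place of 0.0018.

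The promoters are shown because the TEAD factors are known to bind the letters GGAATG, and they show which of the windows hold those letters. A match is a description of the sequence, not a bound site. RefSeq windows of 300 bases, 250 before and 50 after the start site in GRCh38.p14, were at hand for 4 of the 7 genes, and TEAD1, CRIM1 and ARHGEF17 were not matched. The windows are chr6:131951323-131951622 (minus strand) for CTGF, chr10:90921038-90921337 (minus strand) for ANKRD1, chr1:214551553-214551852 (minus strand) for PTPN14 and chr19:2475877-2476176 (plus strand) for GADD45B. Capitals mark GGAATG or its complement CATTCC.
CTGF: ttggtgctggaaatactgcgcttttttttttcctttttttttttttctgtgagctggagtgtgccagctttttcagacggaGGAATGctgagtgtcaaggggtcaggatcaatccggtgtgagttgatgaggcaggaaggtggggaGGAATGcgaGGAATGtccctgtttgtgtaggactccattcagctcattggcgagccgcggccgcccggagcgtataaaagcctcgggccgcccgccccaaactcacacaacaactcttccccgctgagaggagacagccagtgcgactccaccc
ANKRD1: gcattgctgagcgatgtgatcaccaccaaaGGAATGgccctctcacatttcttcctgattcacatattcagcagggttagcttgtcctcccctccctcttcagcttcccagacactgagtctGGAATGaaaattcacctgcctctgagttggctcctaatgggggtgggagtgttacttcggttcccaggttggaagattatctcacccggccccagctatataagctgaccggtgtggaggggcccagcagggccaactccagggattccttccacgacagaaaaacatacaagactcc
PTPN14: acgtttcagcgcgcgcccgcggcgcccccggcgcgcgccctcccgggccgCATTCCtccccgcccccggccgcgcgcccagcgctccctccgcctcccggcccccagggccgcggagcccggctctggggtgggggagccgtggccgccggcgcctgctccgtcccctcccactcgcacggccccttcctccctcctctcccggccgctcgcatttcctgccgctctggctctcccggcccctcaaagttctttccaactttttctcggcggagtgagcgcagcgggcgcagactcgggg
GADD45B: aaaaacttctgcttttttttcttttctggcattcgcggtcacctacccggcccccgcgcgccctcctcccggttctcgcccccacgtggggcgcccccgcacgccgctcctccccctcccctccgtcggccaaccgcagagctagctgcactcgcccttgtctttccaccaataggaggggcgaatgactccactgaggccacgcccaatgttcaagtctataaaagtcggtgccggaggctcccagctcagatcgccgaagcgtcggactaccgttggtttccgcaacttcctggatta
The CTGF window held 3 copies of GGAATG, which began 169, 104 and 95 bases before the start site. The ANKRD1 window held 2 copies, 220 and 128 bases before it, and the PTPN14 window 1 copy on the other strand, 200 bases before it. The GADD45B window held none. At least 1 copy on either strand was found in 14.0% of all 27305 RefSeq promoters of this length, and 3 or more copies in 0.146%, which is 40 promoters. The motif TGANTCA, where N is any base, is its own complement. It includes the site that the AP-1 factors are known to bind, which has C or G as the middle base. TGANTCA was in the ANKRD1 window (1 copy, sharing no base with a GGAATG) and in 7.76% of all promoters. The ANKRD1 copy reads TGATTCA, with T in the middle, and so is not that AP-1 site. In the annotation used for the transcripts, the models of CTGF and GADD45B begin within 1 base of the RefSeq start, that of ANKRD1 lies 189 bases upstream and that of PTPN14 379 bases downstream. GGAATG or its complement was in 11.1% of the 1775 promoters of genes whose transcripts fell, in 10.4% of the 1600 of those that rose and in 11.5% of the 3021 of those not called.

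CTGF and GADD45B were far lower in the knockdown libraries, ANKRD1, ARHGEF17 and TEAD1 were lower by less, and PTPN14 and CRIM1 were higher. The 7 log2 changes ran from -2.80 to 0.97, so these 7 genes did not all move in the same direction. All 7 passed the test, and in none of the 7 did the groups overlap. Among all tested transcripts 51.9% passed and 58.9% had groups that did not overlap, 28.2% with the knockdown higher and 30.7% with it lower. Nothing is read from these counts, since the genes were taken with their results known. RNA of bulk libraries cannot tell apart fewer cells that make a transcript from less of it in each cell.

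**Figure D1:**
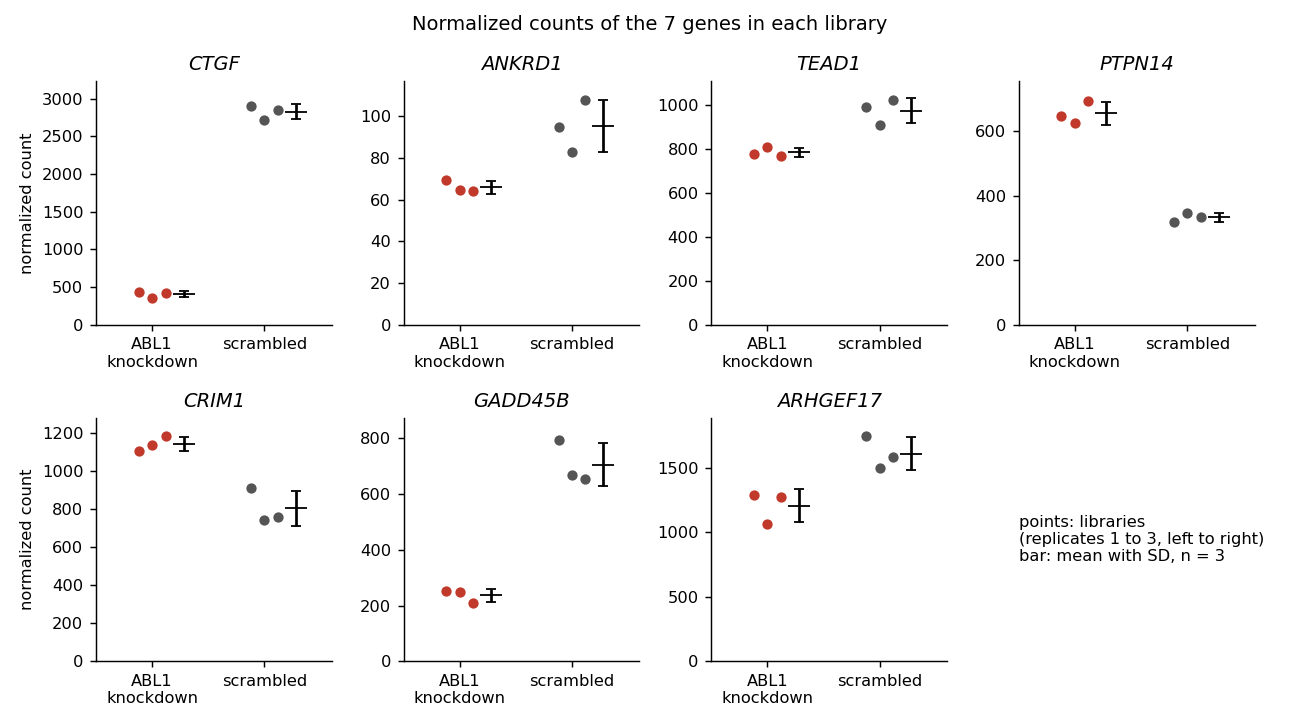
Normalized counts (vertical axis, from 0) of each of the 7 genes in the 3 ABL1 knockdown libraries (red) and the 3 scrambled libraries (grey), with the mean and SD as a bar. The knockdown points lie below the scrambled points in 5 genes and above them in PTPN14 and CRIM1, and the gap is widest for CTGF, with 405 against 2824 on average.

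CTGF encodes a secreted matrix-associated protein of the CCN family and is among the most used readouts of YAP/TAZ activity. Its transcript NM_001901 lies on chromosome 6 (131948176 to 131951373, minus strand, 5 exons). It had normalized counts of 439, 359 and 418 in the knockdown, against 2905, 2715 and 2853 in the scrambled libraries. Every knockdown library was thus several times below every scrambled one, and the spread within each group was small beside that gap. On average CTGF had 405 ± 41.3 normalized counts in the knockdown and 2824 ± 98.3 in the scrambled libraries (SD, n = 3 each), 6.96 times lower, from 318 to 449 reads per knockdown library and 2422 to 3484 per scrambled library. Its log2 change was -2.80 (SE 0.09, 95% interval -3.00 to -2.61, limma adjusted p = 8.76e-10). Its rank among all tested transcripts, counted from the largest fall, was 17, and 0.453% of them had a larger change in either direction.

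CYR61, the CCN family member closest to CTGF in its use as a YAP/TAZ readout, did not pass the test. It had 178, 162 and 173 normalized counts in the knockdown, against 173, 148 and 175 in the scrambled libraries, and the groups overlapped. Its log2 change was 0.05 (SE 0.13, 95% interval -0.23 to 0.34, adjusted p = 0.756). The interval leaves out a fall of the size of that of CTGF. Per kilobase of transcript, CTGF had 2.42, 2.18 and 2.36 reads for each read of CYR61 in the knockdown, against 16.5, 18.0 and 16 in the scrambled libraries. This ratio is formed within a library and does not depend on how libraries are scaled. It was 7.26 times lower in the knockdown, with no overlap between the groups. An exact permutation test of 3 libraries against 3 cannot go below 0.1, so no p is given for it. NOV, another CCN gene, was below the minimum for testing, with 3, 4 and 1 reads in the knockdown, against 13, 8 and 12 in the scrambled libraries.

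**Figure D2:**
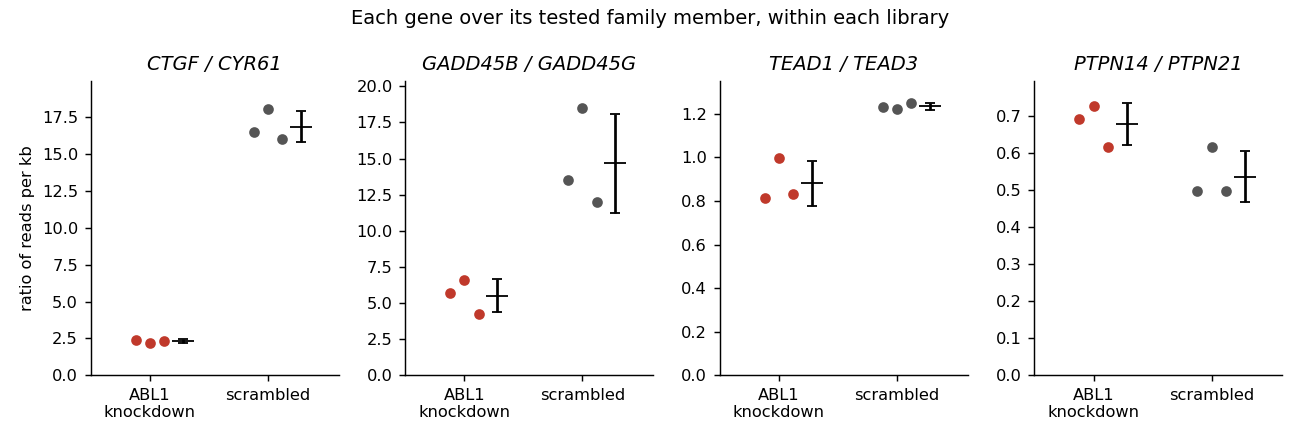
Reads per kilobase of each gene divided by those of its tested family member in the same library (vertical axis, from 0), for the 3 ABL1 knockdown libraries (red) and the 3 scrambled libraries (grey), with the mean and SD as a bar. The ratio of CTGF to CYR61 was 2.32 against 16.8 on average, and the ratio of PTPN14 to PTPN21 overlapped between the groups.

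GADD45B encodes a stress-inducible protein that binds and activates an upstream kinase of the p38 and JNK pathways. Its transcript NM_015675 lies on chromosome 19 (2476127 to 2478259, plus strand, 4 exons). It had 251, 250 and 210 normalized counts in the knockdown, against 795, 667 and 655 in the scrambled libraries. The lowest scrambled library was far above the highest knockdown library. GADD45B averaged 237 ± 23.2 normalized counts in the knockdown and 706 ± 77.9 in the scrambled libraries (SD, n = 3 each), 2.98 times lower, and its log2 change was -1.57 (limma adjusted p = 2.87e-07, SE 0.11). The paralog GADD45G had few reads and did not pass, with a mean of 33.9 normalized counts in the knockdown and 38.7 in the scrambled libraries (log2 change -0.16, adjusted p = 0.633). The ratio of GADD45B to GADD45G per kilobase was 5.52 ± 1.17 in the knockdown and 14.6 ± 3.38 in the scrambled libraries (SD, n = 3 each) and did not overlap. GADD45A, of the same family, had no row and was not analysed here.

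ANKRD1 encodes an ankyrin repeat protein of striated muscle that also acts in the nucleus, and is a common YAP/TAZ readout outside muscle. Its transcript NM_014391 lies on chromosome 10 (90912096 to 90921276, minus strand, 9 exons). It was the least abundant of the 7, with 57 to 71 reads per knockdown library and 74 to 115 per scrambled library. The normalized counts were 69.4, 64.4 and 64.0 in the knockdown, against 95, 82.9 and 108 in the scrambled libraries. The knockdown libraries were close together and the scrambled ones spread over a wider range above them. The log2 change was -0.52 (SE 0.17, 95% interval -0.89 to -0.14, adjusted p = 0.0247). This call was the weakest of the 7. It was lost without knockdown replicate 2 (log2 change -0.50, limma adjusted p = 0.0563) or 3 (-0.50, adjusted p = 0.0579), without scrambled replicate 1 (-0.52, adjusted p = 0.0578) or 3 (-0.42, adjusted p = 0.108), and with equal totals (-0.35, adjusted p = 0.113). Its adjusted p over all alternatives ran from 0.0156 to 0.113.

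ARHGEF17 encodes a guanine nucleotide exchange factor. Its transcript NM_014786 lies on chromosome 11 (73308289 to 73369091, plus strand, 21 exons). The normalized counts were 1290, 1064 and 1272 in the knockdown, against 1748, 1501 and 1584 in the scrambled libraries. The highest knockdown library was below the lowest scrambled one. The log2 change was -0.42 (SE 0.09, adjusted p = 0.00250), and with equal totals it was -0.24 (adjusted p = 0.0330).

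TEAD1 encodes 1 of the TEAD factors that carry YAP and TAZ to DNA. Its transcript NM_021961 lies on chromosome 11 (12674591 to 12938034, plus strand, 13 exons). It had 780, 808 and 770 normalized counts in the knockdown, against 993, 911 and 1024 in the scrambled libraries. The knockdown libraries sat in a narrow range below all scrambled ones. The log2 change was -0.31 (SE 0.08, adjusted p = 0.00656), the smallest of the 7, and 62.1% of all tested transcripts had a larger change. With equal totals it was -0.14 and did not pass (adjusted p = 0.179). Its paralog TEAD3 had 1125, 948 and 1087 normalized counts in the knockdown, against 949, 876 and 963 in the scrambled libraries, with overlapping groups and a log2 change of 0.18 (adjusted p = 0.110). That became 0.35 (adjusted p = 0.00377) with equal totals and 0.28 (adjusted p = 0.0145) with quantile normalization. Within libraries, where scaling plays no part, TEAD1 had 0.813, 0.999 and 0.830 reads per kilobase for each of TEAD3 in the knockdown, against 1.23, 1.22 and 1.25 in the scrambled libraries. So the balance between both transcripts was lower for TEAD1 in every knockdown library, by 1.40 times on average. The TEAD3 row, NM_003214, is 1 of 2 curated transcripts and may hold only part of that gene's reads. TEAD2 and TEAD4 were below the minimum for testing, with 11 and 16 reads in all 3 knockdown libraries together, against 11 and 27 in the scrambled ones. YAP1 and WWTR1 had no row and were not analysed here.

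PTPN14 encodes a tyrosine phosphatase that binds YAP and holds it in the cytoplasm, and is at the same time a YAP/TAZ target. Its transcript NM_005401 lies on chromosome 1 (214348696 to 214551223, minus strand, 19 exons). It had 646, 624 and 693 normalized counts in the knockdown, against 319, 346 and 332 in the scrambled libraries. The lowest knockdown library was far above the highest scrambled one, and PTPN14 averaged 654 ± 35.5 normalized counts in the knockdown and 333 ± 13.5 in the scrambled libraries (SD, n = 3 each), 1.97 times higher. The log2 change was 0.97 (SE 0.09, adjusted p = 2.65e-06). PTPN21, its closest relative, also rose, with 443, 408 and 536 normalized counts in the knockdown, against 306, 268 and 317 in the scrambled libraries (log2 change 0.63, adjusted p = 0.000835). The ratio of PTPN14 to PTPN21 per kilobase was 0.692, 0.726 and 0.614 in the knockdown, against 0.496, 0.614 and 0.497 in the scrambled libraries. The groups met at a single value, and whether both genes rose to different extents was not tested.

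CRIM1 encodes a transmembrane protein with cysteine-rich repeats that binds bone morphogenetic proteins. Its transcript NM_016441 lies on chromosome 2 (36355926 to 36551135, plus strand, 17 exons). The normalized counts were 1107, 1135 and 1183 in the knockdown, against 910, 742 and 759 in the scrambled libraries. The scrambled libraries were less even than the knockdown ones but all lay below them. The log2 change was 0.51 (SE 0.09, adjusted p = 0.000525), which was 0.46 to 0.60 with 1 library left out and 0.69 with equal totals.

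**Figure D3:**
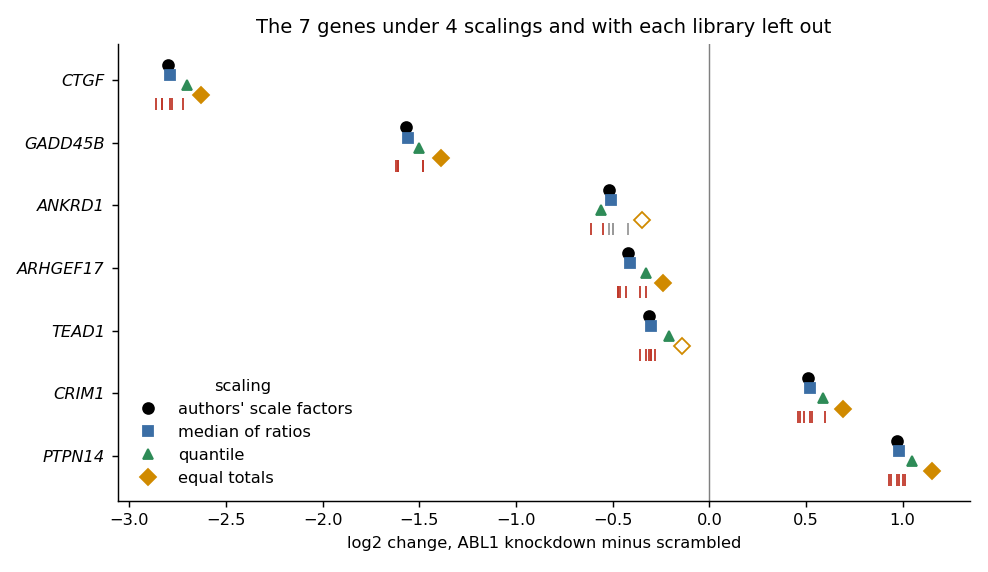
Log2 change of the 7 genes (horizontal axis, ABL1 knockdown minus scrambled) under 4 ways of scaling the libraries (symbols; open where the adjusted p is 0.05 or more) and with each of the 6 libraries left out in turn (ticks; red where the call holds, grey where it is lost). No gene crosses 0, while ANKRD1 (-0.35) and TEAD1 (-0.14) lose their calls with equal totals.

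Each of the 7 genes has 1 curated RefSeq transcript, so no read was split between curated transcripts of the same gene. The annotation used has a gene on the opposite strand that overlaps exons of CTGF, of CRIM1 and of ARHGEF17, and 1 on the same strand that overlaps PTPN14. Whether the authors' counting used strand is not stated in the sources used here, so reads of such partners cannot be told apart from those of the 4 genes.

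Per kilobase of transcript the order of the 7 genes differed between the groups. In the knockdown libraries TEAD1 led with 309 ± 7.86 normalized counts per kilobase, followed by CRIM1 (193 ± 6.51), CTGF (173 ± 17.7), GADD45B (173 ± 16.9), ARHGEF17 (154 ± 16), PTPN14 (50.4 ± 2.73) and ANKRD1 (33.3 ± 1.54). In the scrambled libraries CTGF led with 1207 ± 42.0, followed by GADD45B (514 ± 56.7), TEAD1 (384 ± 22.8), ARHGEF17 (205 ± 16), CRIM1 (136 ± 15.6), ANKRD1 (48.2 ± 6.31) and PTPN14 (25.6 ± 1.04), all with SD and n = 3. The ranges of CRIM1, CTGF, GADD45B and ARHGEF17 in the knockdown libraries ran from 187 to 200.2, 154 to 188, 153 to 183 and 135 to 164. Neighbours in that stretch overlapped and are not ordered beyond their spread, whereas in the scrambled libraries no neighbours overlapped.

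By their profiles over the 6 libraries the 7 genes fell at different distances from each other, measured as the root mean square difference of centred log2 values. ANKRD1, TEAD1 and ARHGEF17 were 0.13 to 0.14 apart, and PTPN14 and CRIM1 0.26. GADD45B was 0.55 from ANKRD1, 0.60 from ARHGEF17 and 0.64 from both TEAD1 and CTGF, so it was no nearer to CTGF than to these. CTGF was 0.64 to 1.89 from the others, farthest from PTPN14. Among all tested transcripts, those nearest to CTGF were MKI67 (distance 0.087, log2 change -2.93) and SORCS2 (0.087, -2.83). EMP2 (0.060, -1.56) and TM4SF5 (0.088, -1.50) were nearest to GADD45B, ADORA2B (0.053, -0.59) and PLA2G12A (0.056, -0.52) to ANKRD1, and DHRS13 (0.020, -0.44) and CBX2 (0.024, -0.39) to ARHGEF17. CLDN1 (0.026, -0.31) and IDH3A (0.036, -0.27) were nearest to TEAD1, SLC35E3 (0.025, 0.97) and MTF1 (0.053, 1.02) to PTPN14, and KDM2A (0.051, 0.53) and PTGFRN (0.052, 0.47) to CRIM1. These distances weigh the size of the group difference and the spread within a group together, over 6 libraries.

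Other YAP/TAZ targets are described beside these 7. Of 22 core targets, a set that YAP/TAZ and TEAD are known to drive in many cell types, 10 were tested. The 5 that are not among the genes above did not pass: the Hippo kinase gene LATS2 (log2 change -0.04), CYR61 (0.05), the matrix protein gene CCDC80 (0.37), the Rac exchange factor gene DOCK5 (-0.21) and the kinase gene NUAK2 (-0.16). The limma adjusted p of these 5 ran from 0.0785 for DOCK5 to 0.756 for CYR61 and LATS2. Of all tested transcripts 51.9% passed. Since the 7 genes were taken with their results known, nothing is read from the split between them and these 5. Of DOCK5 and CCDC80 the groups did not overlap, with 409, 441 and 396 normalized counts of DOCK5 in the knockdown, against 475, 465 and 499 in the scrambled libraries. Over the 10 tested core targets the median log2 change was -0.10, against 0.0018 over all tested transcripts. With equal totals it was 0.07, against 0.17 over all tested transcripts. FJX1, another core target, was below the minimum, with 2, 5 and 6 reads in the knockdown, against 0, 0 and 2 in the scrambled libraries.

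**Figure D4:**
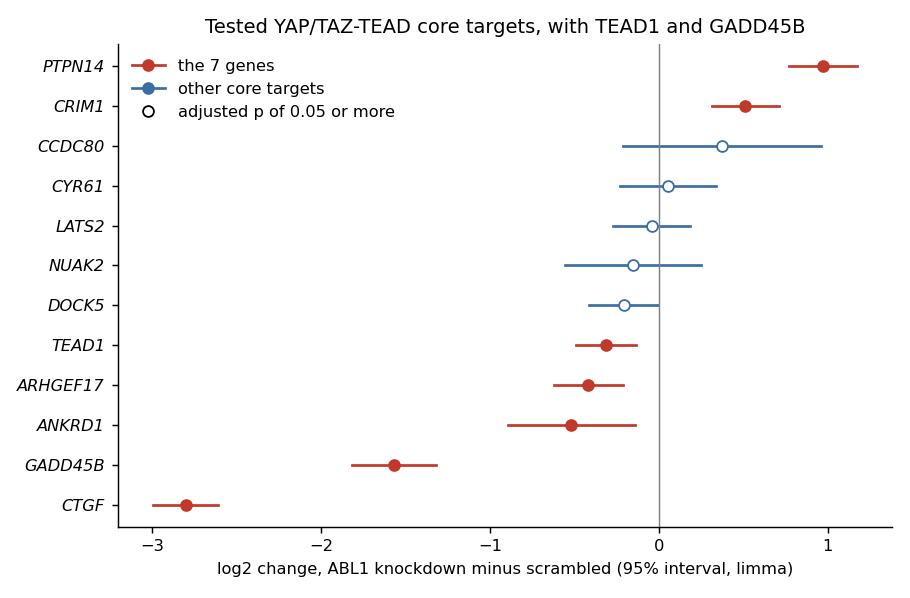
Log2 change (horizontal axis, ABL1 knockdown minus scrambled) with its 95% interval from limma for the 10 tested core targets and for TEAD1 and GADD45B. The 7 genes are red and the other core targets blue, open where the adjusted p is 0.05 or more, and the 5 blue points lie between -0.21 and 0.37.

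A wider list of genes that YAP is known to induce in several species had 34 tested members, of which 13 fell and 4 rose, beside 27.4% that fell and 24.5% that rose among all tested transcripts. The median log2 change of the 34 was -0.14. With equal totals it was 0.03, against 0.17 over all tested transcripts, and 10 of the 34 fell and 7 rose. Of all 8600 tested transcripts 1699 fell and 2967 rose with that scaling. The 34 include CTGF, GADD45B, ANKRD1 and CRIM1, which were taken with their results known. Without these 4, 10 of 30 fell and 3 rose, with a median of -0.09. The largest falls besides CTGF and GADD45B were of EMP2 (-1.56), a membrane protein gene, of TOP2A (-1.51), which encodes a topoisomerase of dividing cells, and of CDC20 (-1.19), which encodes an activator of the anaphase-promoting complex. TOP2A, CDC20 and CENPF (-0.74) are also markers of dividing cells, and the part of cell division in their falls was not tested. The rises other than CRIM1 were of SHCBP1 (0.26), BICC1 (0.22) and DLC1 (1.37, transcript NM_001316668, 1 of 26 curated transcripts), and each lost its call under some omissions of a library. SHCBP1 lost it without knockdown replicate 1 (adjusted p = 0.0942) or scrambled replicate 3 (0.0769). BICC1 lost it without knockdown replicate 1 (adjusted p = 0.125), 2 (0.0634) or 3 (0.0765) or scrambled replicate 2 (0.178). DLC1 lost it without knockdown replicate 1 (adjusted p = 0.0788), 2 (0.0682) or 3 (0.0533) or scrambled replicate 2 (0.0843), which also took its log2 change to 0.64. DLC1 had 2 tested rows. With reads summed per gene its log2 change was 0.77 and did not pass (limma adjusted p = 0.0776). With quantile normalization the row above did not pass either (1.28, adjusted p = 0.0526).

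Of the TEAD cofactors, VGLL3 and VGLL4 rose. They encode vestigial-like proteins that bind TEAD factors, and VGLL4 is known to compete with YAP. VGLL4 (NM_001128219, 1 of 6 curated transcripts) had 67.5, 78.0 and 85.6 normalized counts in the knockdown, against 42.5, 41.5 and 45.0 in the scrambled libraries (log2 change 0.82, adjusted p = 0.00340). VGLL3 (NM_016206, 1 of 3 curated transcripts) had 18.6, 30.5 and 15.5, against 7.50, 5.6 and 7.51 (log2 change 1.47, adjusted p = 0.00755). Few reads lie behind these values: 19, 27 and 15, against 9, 5 and 8. The scrambled mean of VGLL3 was 6.87, under the minimum of 10. A transcript at that level in both groups would not have been tested, so VGLL3 entered the test through its knockdown libraries. The groups did not overlap for either gene, as in 28.2% of all tested transcripts with the knockdown higher. Of the 4 tested genes of this list, TEAD1 was thus the one that fell, where 27.4% of all tested transcripts fell and 24.5% rose. With equal totals none of the 4 fell and TEAD3, VGLL3 and VGLL4 rose. With that scaling 2967 of all 8600 tested transcripts rose and 1699 fell.

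Of 11 tested Hippo kinases and adaptors 2 rose and 1 fell, where 24.5% of all tested transcripts rose and 27.4% fell. STK38L, a kinase gene of the LATS group, fell by 1.02 on the log2 scale (adjusted p = 3.32e-05), with 185, 215 and 167 normalized counts in the knockdown, against 393, 336 and 420 in the scrambled libraries. SAV1 (0.30, adjusted p = 0.0343) and the kinase gene TAOK3 (0.24, adjusted p = 0.0394, 1 of 12 curated transcripts) rose, and each call was lost under 4 of the 6 omissions of a library, where the log2 change was 0.23 to 0.32 for SAV1 and 0.21 to 0.24 for TAOK3. The call of SAV1 was lost without knockdown replicate 1 (adjusted p = 0.0655) or 3 (0.109) or scrambled replicate 1 (0.0599) or 2 (0.120), and that of TAOK3 without knockdown replicate 1 (adjusted p = 0.144) or 3 (0.102) or scrambled replicate 1 (0.0787) or 3 (0.123). The other 8, among them LATS2, STK4 (0.07) and WWC2 (0.03), did not pass, and the median of the 11 was 0.03. With equal totals STK4 (0.25) and WWC2 (0.20) rose as well, so that 4 rose and 1 fell, and the median was 0.20. Over all 8600 tested transcripts 2967 rose and 1699 fell with that scaling, and the median was 0.17.

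Of 14 tested regulators at junctions and of polarity 5 fell and 3 rose, with a median of -0.18. Among all tested transcripts 27.4% fell and 24.5% rose. PRKCI, the gene of an atypical protein kinase C of the polarity complex, had 585, 531 and 558 normalized counts in the knockdown, against 1762, 1666 and 1951 in the scrambled libraries (log2 change -1.68, adjusted p = 2.07e-08). LIMD1, whose LIM-domain product binds and inhibits LATS kinases, had 324, 327 and 280, against 730, 692 and 683 (log2 change -1.18, adjusted p = 8.51e-07). Both genes were lower in every knockdown library than in any scrambled one. The protocadherin gene DCHS1 (-0.73) and the polarity genes PARD6B (-0.42) and PATJ (-0.27) fell too. With equal totals PARD6B (-0.24, adjusted p = 0.0647) and PATJ (-0.10, adjusted p = 0.381) did not pass, and PATJ also lost its call without knockdown replicate 3 (adjusted p = 0.0669) or scrambled replicate 2 (0.0693). Besides PTPN14 and PTPN21, the phosphatase gene PTPN11 rose (0.25), a call that was lost without knockdown replicate 1 (adjusted p = 0.0551) or scrambled replicate 1 (0.0501).

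Of 7 genes for the turnover and dephosphorylation of YAP/TAZ, PPP2CA (0.42) and STRN (0.37) rose and the 14-3-3 gene YWHAQ (-0.33) fell, which did not pass with equal totals (-0.16, adjusted p = 0.0561). The other 4 did not pass. Of all tested transcripts 24.5% rose and 27.4% fell. The median of the 7 turnover and dephosphorylation genes was -0.06, and 0.11 with equal totals and 0.05 with quantile normalization. Over all tested transcripts the medians under these 3 scalings were 0.0018, 0.17 and 0.035.

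CTGF and GADD45B are also known targets of transforming growth factor beta and its SMAD factors. Of 15 tested genes of that pathway 9 fell and 2 rose, with a median log2 change of -0.71. Without CTGF and GADD45B, 7 of 13 fell and 2 rose, with a median of -0.41. Over all tested transcripts 27.4% fell and 24.5% rose, with a median of 0.0018, and no test of the list against them was made. TGFBI (-1.0), a matrix gene, COL1A1 (-1.03), the SMAD corepressor gene SKI (-0.92) and TGFB1 (-0.78), the gene of the ligand, were lower, and the BMP targets ID3 (0.85) and BAMBI (0.35) were higher. With equal totals 4 genes of the list rose and 8 fell, where 2967 of all 8600 tested transcripts rose and 1699 fell. TIMP1 (-0.26) was called with all libraries and lost the call without any 1 of them, with an adjusted p from 0.0523 without scrambled replicate 3 to 0.169 without scrambled replicate 2. Of 5 tested targets of SRF, which shares target genes with YAP/TAZ, ACTB fell (-0.45), TLN1 rose (0.31) and the others did not pass, with a median of 0.31.

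**Figure D5:**
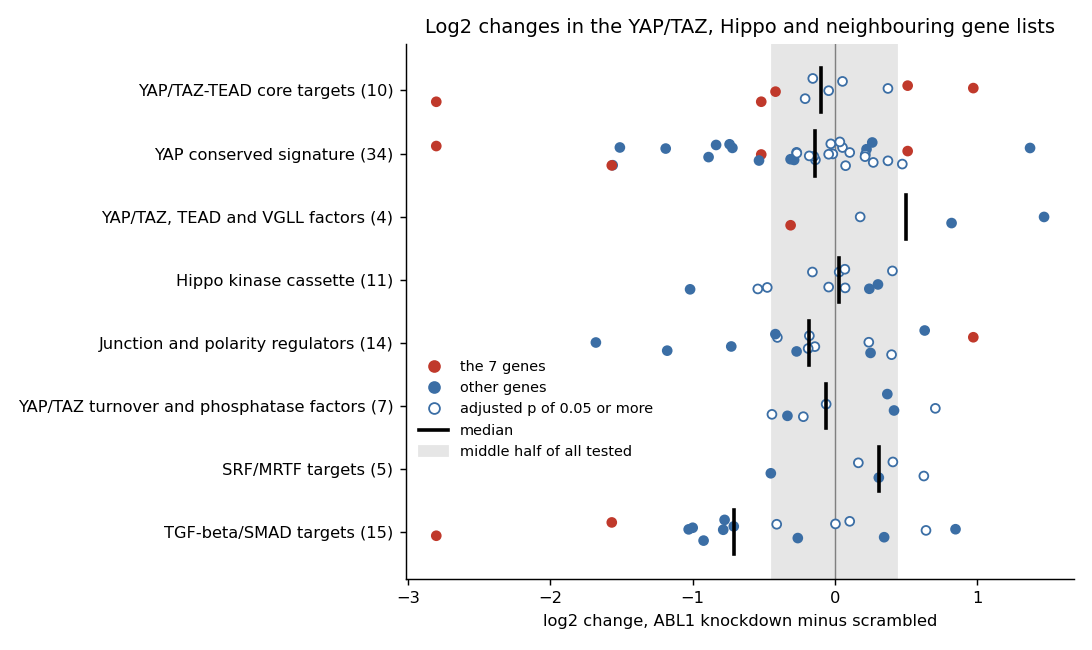
Log2 change (horizontal axis, ABL1 knockdown minus scrambled) of each tested gene in 8 lists around YAP/TAZ, with the number tested in brackets. Filled points passed the threshold, the 7 genes are red, black bars are medians, and the grey band from -0.44 to 0.43 is the interquartile range of all tested transcripts; CTGF stands farthest to the left in the core, conserved and TGF-beta/SMAD lists.

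Markers of other cell types were measured beside these genes. Of 8 fibroblast and stellate markers 6 were tested. They summed to 13259 to 14609 normalized counts per knockdown library and 8912 to 9908 per scrambled library. LUM (log2 change 2.11), PDGFRA (1.84), COL3A1 (1.54) and COL1A2 (0.62) rose, while COL1A1 fell (-1.03) and PDGFRB (-0.12) did not pass. Of all tested transcripts 24.5% rose and 27.4% fell. Most of the sum was COL1A2, with 12277, 11231 and 12486 normalized counts in the knockdown, against 8422, 7540 and 7499 in the scrambled libraries. The 3 tested endothelial markers summed to 114 to 138 normalized counts per knockdown library and 159 to 173 per scrambled library, with CDH5 and PECAM1 lower and VWF higher. Of the immune markers PTPRC, CD68 and CD3E had no row and LYZ alone was tested. It had 6520 to 7464 normalized counts in the knockdown and 5656 to 6275 in the scrambled libraries (log2 change 0.21). This call was ended by 4 of the 6 omissions of a library, with a limma adjusted p up to 0.110 without scrambled replicate 1. All libraries are of the Huh7 line, and whether any other cells were present was not tested.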

How the data were processed

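RNA-seq of 6 libraries of Huh7 cells, grouped by their titles, was analysed. The submitters' processing notes name HISAT2 2.0.4, HTSeq 0.6.1 and build hg38. Their roles, the annotation, the strand setting and the row filter are not stated in the sources used here. The authors deposited 1 signal value per RefSeq transcript and library. From the values, this signal is a scaled square root, whose square is a step per library times a whole number of reads plus 0.375. The recovered reads were whole within 0.05 for 100% of rows, with totals of 6651413 to 10487862. Where a gene has several RefSeq transcripts, a row holds part of its reads.

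Normalized counts are reads times the relative step. Transcripts with a mean of at least 10 were tested two-sided with limma 3.58.1 in R 4.3.3, with the variance trended on the mean, after log2(normalized count + 1), which understates changes of transcripts with few reads. The p-values were adjusted after Benjamini and Hochberg. The fit was tested on simulated data. Chi-square per degree of freedom between libraries of a group was 5.50 to 9.70, so none was a duplicate. For list genes with several rows, the most abundant tested transcript was used. Positions and lengths are from GENCODE 29 (GRCh38), promoters from RefSeq.

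The 7 genes, the lists and the rule for named genes were chosen with earlier results of these data known. The rule took the 7 genes, ABL1, the TEAD, CCN, GADD45 and PTPN14 families, the 2 nearest profiles of each of the 7, and up to 4 called genes per list by smallest p. Genes of short counts, and others named for context, were chosen after their values were seen. Some genes and 1 list are not reported here.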

Additional observations from a re-analysis of the deposited data

How the results depend on the processing

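The results were recomputed under 18 alternatives (scaling, pseudocount, filter, variance model, deposited square roots, reads summed per gene, a replicate block and 6 omissions of a library). The 7 genes kept their direction in all of them, and CTGF, GADD45B, PTPN14, CRIM1 and ARHGEF17 kept their calls. ANKRD1 (-0.35) and TEAD1 (-0.14) lost theirs with equal totals, and ANKRD1 ran from -0.61 to -0.42 with 1 library left out. The count of all transcripts called was 3654 to 4821, against 4460. Among the other genes, CFL1, not called with the authors' scaling, rose with equal totals (0.17) and quantile normalization (0.22). APOB went to 0 with quantile normalization, which gives equal ranks equal values. ABL1 NM_005157 took the fall of the summed gene (-1.33) when reads were summed. Counts in the lists changed most with equal totals, by construction of the higher median.

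The deviations of same-numbered libraries correlated weakly (0.0471, 0.0765 and 0.0768), and those of differently numbered ones ran from -0.153 to 0.0886. Values this weak do not settle whether the numbers pair the samples, and the main test used no pairing. With the replicate block 4821 transcripts were called, 2301 higher and 2520 lower, and none of the 7 genes lost its call. Depth limits ANKRD1 most, with 57 to 115 reads per library, and TEAD2, TEAD4, NOV and FJX1 could not be tested.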
